A study of Rattus norvegicus with 4 samples.

Results

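The genes described here encode the SR proteins, the hnRNP proteins and the SF3A and SF3B subunits of the spliceosome, measured in 4 cultures of NR8383, a rat alveolar macrophage line, that had all been exposed to NM403, a carbon nanotube material, at 0.8 cm² of material per cm² for 4 h. The members were all non-control array probes whose transcript accession mapped to a rat gene symbol beginning with Srsf, Hnrnp, Sf3a or Sf3b. The rule found 69 of 45598 probes, and they stood for 38 of 16581 named genes. There were 17 probes of 10 Srsf genes, 39 probes of 19 Hnrnp genes and 13 probes of 9 Sf3a and Sf3b genes. The Sf3a and Sf3b genes belong to neither the SR nor the hnRNP family. They were taken in by the rule as core splicing subunits. Of the 42 protein-coding symbols with these prefixes in the RefSeq rat gene table, leaving aside symbols with a pseudogene suffix, 4 had no named probe: Hnrnpa0, Hnrnpll, Srsf8 and Srsf11.

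The cells had gone through 20 passages and were grown for 48 h in 25 cm² flasks before use. The serum content recorded for all 4 cultures was 15%. Each culture was hybridised to a 1-colour Agilent array. The design text calls the 4 cultures biological replicates and lists unexposed ones too, not analysed here. With exposed cells alone there is 1 group and no contrast, so what follows compares the 4 cultures with each other and the probes of one gene with each other.

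SR proteins carry an RNA-binding domain and a tail rich in arginine and serine, and they help the spliceosome to recognise exons by binding exonic enhancers. The hnRNP proteins coat nascent transcripts and often oppose exon recognition. SF3A and SF3B are parts of the U2 snRNP that hold it at the branch point of the intron. Many SR and hnRNP genes control their own messenger RNA by splicing in poison exons or alternative 3′ ends, so that 1 gene can give several transcripts and probes of that gene need not measure the same one.

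A level is the log2 processed signal of a probe minus its array's 75th percentile, which was taken over probes detected on every array, so that 0 is that percentile and a difference of 1 is 2-fold. The signal also depends on the probe, so levels are compared for one probe between cultures, and brighter or dimmer refers to a probe's signal, not to how much of a transcript there is. A probe was detected where the software called it well above background. Its range is the fold difference between its highest and lowest array. The 75th percentile itself lay at a signal between 2257 and 2775, between 45.9% and 50.8% of the non-control spots were well above background, and the number of arrays limits the precision. Feature Extraction marked replicate 4 for evaluation, with 2 of its quality measures out of range, and the other 3 arrays as in range. All 9 macrophage markers checked were detected on all arrays. Of the 14 measured markers of epithelium, fibroblasts, T cells and neutrophils, 3 were (Dcn, Cd3d and Camp), and the others, among them Epcam, Col1a1 and Cd3e, were detected on at most 1 array.

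Nearly all splicing factor genes were detected. Of the 69 probes, 62 were detected on all 4 arrays, against 34.2% of all non-control probes and 46.4% of those with a gene symbol. Another 5 were detected on some arrays, and the remaining 2 on none. By gene, 36 of 38 had at least 1 probe detected on all arrays, against 7937 of 16581 named genes, which had fewer probes per gene. The member genes without such a probe were Srsf12, an SR-related protein known to repress splicing, and Hnrnpcl1, a relative of Hnrnpc. The single Srsf12 probe was detected on replicate 2 alone, at -5.32, and read -8.45, -8.16 and -7.95 on replicates 1, 3 and 4. None of the 24 spots around it was raised on replicate 2. The Hnrnpcl1 probe was detected on 0 of 4 arrays.

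The members differed between the 4 cultures, and those with a range over 2-fold shared one pattern. Among the 62 probes detected on all arrays, 20 (32.3%) had a range over 2-fold, against 18.3% of all non-control probes and 14.4% of probes with a gene symbol. All 20 read highest on replicates 1 and 3 and lowest on replicates 2 and 4. Over all non-control probes, 15.3% had a range over 2-fold with that pair highest and 1.31% with replicates 2 and 4 highest (11.8% and 1.03% of probes with a gene symbol). These pairs of arrays are also the ones most probes of the series follow, and whether the arrays of a pair share more than their label was not tested, so n = 4 rests on the design text. Between replicates 1 and 3, 0 of the 62 probes differed by over 2-fold, against 0.713% of all probes detected on all arrays. Between replicates 2 and 4 also 0 did, against 1.60%, so few probes of any kind differed within these pairs. In the other 4 pairs of arrays 13 to 18 probes (21.0% to 29.0%) did, against 12.7% to 13.7%. The median member had a 1.55-fold range and the median non-control probe a 1.44-fold range.

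The count and the direction both depend on how the arrays are scaled. With the 75th percentile of all non-control probes, 15 members had a range over 2-fold (24.2%, against 21.5% of all probes), 9 of them highest on replicates 1 and 3. With the array median 15 did (24.2%, against 17.0%), 14 of them highest on that pair, and with quantile normalization 18 did (29.0%, against 17.2%), 16 of them highest on that pair. Counting all 62 probes whatever their range, 35 were highest on replicates 1 and 3 and 22 on replicates 2 and 4, against 40.1% and 41.5% of all probes and 36.5% and 45.1% of those with a gene symbol. This split was 26 and 33 with the percentile of all probes, 28 and 28 with the array median, and 33 and 21 after quantile normalization. These scalings moved the median deviation of all probes by up to 0.20 on the log2 scale. In all 5 settings, which include normexp background correction, 46 of the 62 probes kept the same highest pair, 26 of them replicates 1 and 3 and 19 replicates 2 and 4, and 9 had a range over 2-fold. Those 9 were both probes of Hnrnpr and of Hnrnpul2, 2 probes of Hnrnpa3 and 1 each of Hnrnph3, Hnrnpa1 and Srsf2. The shares of all probes that kept their pair or their range in all 5 settings were not computed. The 46 and the 9 therefore describe the members only, not how they differ from other probes. The share of detected spots also moved with the pairs, 50.8% and 49.6% on replicates 1 and 3 against 47.5% and 45.9% on replicates 2 and 4. Its part in the result was not tested.

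Dimmer probes varied more. Of the 20 members below the median level of detected probes, 11 (55.0%) had a range over 2-fold, against 26.5% of all probes below it. Of the 42 members above it, 9 (21.4%) did, against 10.0%.

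Promoters of 4 members are shown to set 2 genes whose probes were higher on replicates 1 and 3 (Hnrnpa3 and Hnrnpm) beside 2 whose probes were higher on replicates 2 and 4 (Hnrnpc and Sf3b5). They were chosen after their values were seen. Each is the 250 bases before the gene's start in RefSeq's rat assembly GRCr8, 5′ to 3′, and the capitals mark matches on either strand to the CCAAT box, to the GC box GGGCGG, to the TATA box TATAAA, to the ETS core CCGGAAG, to the E-box CACGTG or to the CRE letters TGACGTCA.
Hnrnpa3, chr3:80985684-80985933, + strand: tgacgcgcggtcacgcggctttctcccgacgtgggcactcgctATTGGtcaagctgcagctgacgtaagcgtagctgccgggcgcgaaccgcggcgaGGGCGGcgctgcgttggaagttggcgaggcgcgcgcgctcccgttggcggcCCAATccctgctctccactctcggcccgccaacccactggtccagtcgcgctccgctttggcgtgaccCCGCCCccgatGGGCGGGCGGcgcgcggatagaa
Hnrnpm, chr7:15178872-15179121, - strand: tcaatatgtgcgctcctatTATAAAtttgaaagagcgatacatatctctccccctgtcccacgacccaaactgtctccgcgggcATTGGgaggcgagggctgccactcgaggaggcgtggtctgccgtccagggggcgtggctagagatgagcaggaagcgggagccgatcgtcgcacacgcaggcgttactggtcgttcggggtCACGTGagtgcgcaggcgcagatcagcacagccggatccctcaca
Hnrnpc, chr15:27282716-27282965, - strand: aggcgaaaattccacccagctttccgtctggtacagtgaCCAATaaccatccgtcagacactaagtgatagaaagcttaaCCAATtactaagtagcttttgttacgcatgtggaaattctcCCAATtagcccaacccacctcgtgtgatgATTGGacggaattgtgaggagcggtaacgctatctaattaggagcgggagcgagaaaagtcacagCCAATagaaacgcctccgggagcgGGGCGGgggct
Sf3b5, chr1:9176939-9177188, + strand: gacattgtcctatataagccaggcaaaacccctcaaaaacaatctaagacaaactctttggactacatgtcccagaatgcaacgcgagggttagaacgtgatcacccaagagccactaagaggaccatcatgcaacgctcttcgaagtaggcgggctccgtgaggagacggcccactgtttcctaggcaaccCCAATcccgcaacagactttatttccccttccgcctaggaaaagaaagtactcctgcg

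The promoter table held 46 entries for 37 of the 38 member genes. CCAAT stood in 23 of the 46 (50.0%), against 34.0% of all 33469 promoters, and GGGCGG in 27 (58.7%), against 30.5%. CCGGAAG, the core read by ETS factors, stood in 10 (21.7%), against 7.27%. TATAAA stood in 6 (13%), against 12.9%, CACGTG in 5 (10.9%), against 5.59%, and TGACGTCA in 0, against 1.59%. By the highest pair of each gene's brightest detected probe, 20 entries fell to replicates 1 and 3 and 16 to replicates 2 and 4. CCGGAAG stood in 2 and 7 of these, CCAAT in 12 and 7, and GGGCGG in 12 and 11. TATAAA stood in 2 and 2, CACGTG in 3 and 2, and TGACGTCA in 0 and 0. The highest pair depends on the scaling, and the split was not tested. Of the 4 shown, Hnrnpa3 held 4 GGGCGG, 2 of which overlap, and 2 CCAAT, Hnrnpm held 1 CCAAT, 1 TATAAA and 1 CACGTG, Hnrnpc held 5 CCAAT and 1 GGGCGG, and Sf3b5 held 1 CCAAT. The median GC content was 60.4% in member promoters and 51.2% in all promoters, and its part in the motif shares was not tested. A match of letters does not show that a factor binds there.

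Of the 14 detected Srsf probes, 8 (57.1%, against 40.1% of all probes) were highest on replicates 1 and 3. Another 4 (28.6%, against 41.5%) were highest on replicates 2 and 4. A range over 2-fold was found for 6 of the 14 (42.9%, against 18.3% of all probes), and they belonged to Srsf1, Srsf2, Srsf5, Srsf6 and Srsf10. With the percentile of all probes 1 did, with the array median 3 did, and 4 after quantile normalization, where 21.5%, 17.0% and 17.2% of all probes did. Srsf1, the classical SR protein that also acts in export and translation, read -2.06, -3.38, -2.0 and -3.37 across replicates 1 to 4, a 2.60-fold range. Replicates 1 and 3 lay close together and above replicates 2 and 4. Srsf6 read -4.21, -5.05, -3.97 and -5.08, a 2.15-fold range with the same higher pair.

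Srsf5, another classical SR protein, had 3 probes that moved alike. The brightest, A_44_P515521, had a 2.04-fold range (0.28, -0.59, 0.35 and -0.68). Probe A_64_P015902 had a 2.26-fold range (0.16, -0.92, 0.14 and -1.01) and probe A_44_P1087641 a 1.98-fold range (-0.32, -1.30, -0.35 and -1.22), just under the threshold. On all 3 probes, replicates 1 and 3 lay above replicates 2 and 4 without overlap.

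Srsf10, a splicing repressor that is activated by dephosphorylation, had 3 probes against 3 transcript records. Probe A_44_P408011 read -1.42, -2.09, -1.33 and -1.86, a 1.70-fold range, and probe A_44_P1106242 read -3.58, -4.58, -3.37 and -4.55, a 2.32-fold range. Probe A_44_P808337 was detected on replicates 1 and 3 alone, at -4.77 and -4.01, and read -6.00 and -6.50 on replicates 2 and 4. All 3 were higher on replicates 1 and 3.

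The brightest probes of Srsf3, Srsf4, Srsf7 and Srsf9 had ranges under 1.5-fold and were highest on replicates 2 and 4 in all 5 settings. Their ranges depend on the scaling, and with the percentile of all probes they were 1.75-fold, 1.66-fold, 1.43-fold and 1.66-fold, where the 3 Srsf5 probes had ranges of 1.55-fold to 1.77-fold. Srsf3, one of the smallest SR proteins, read -0.81, -0.50, -0.87 and -0.44 with its brighter probe, a 1.35-fold range, and its other probe had a 1.22-fold range. Srsf4 had a level of -0.81 ± 0.17 (SD, n = 4), with readings of -0.91, -0.69, -0.99 and -0.64, and Srsf9 of -0.86 ± 0.18. Srsf7, which is close to Srsf3 in its RNA-binding domain, read 0.22, 0.31, 0.23 and 0.36 with probe A_64_P391801, which is printed 10 times per array. Its second probe, A_44_P1106432, which is designed against a predicted transcript record, was detected on replicates 1, 2 and 3 at -4.15, -4.06 and -4.37 and was not well above background on replicate 4, at -5.77. Replicate 4 was the low array there.

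Of 36 detected Hnrnp probes, 14 had a range over 2-fold (38.9%, against 18.3% of all probes), and they belonged to 9 genes: Hnrnpa1, Hnrnpa2b1, Hnrnpa3, Hnrnph1, Hnrnph2, Hnrnph3, Hnrnpm, Hnrnpr and Hnrnpul2. With the percentile of all probes 10 did, 8 of them highest on replicates 1 and 3, and with the array median or quantile normalization 12 did. The median range was 1.62-fold, against 1.44-fold for all probes.

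Hnrnph1, Hnrnph2 and Hnrnph3 encode related proteins that bind runs of guanines. Hnrnph1, with a probe printed 10 times per array, read 0.64, -0.49, 0.66 and -0.69 across replicates 1 to 4, a 2.55-fold range. Hnrnph2 read -1.12, -2.11, -1.15 and -2.31, a 2.27-fold range. Hnrnph3 read -2.94, -4.66, -3.09 and -4.39, a 3.30-fold range, and its dimmer probe was detected on replicates 1 and 3 alone, at -4.76 and -4.41, against -6.21 and -6.78 on replicates 2 and 4. All 3 genes were higher on replicates 1 and 3. The related Hnrnpf read 1.88, 2.04, 1.90 and 2.09 with its brighter probe, a 1.15-fold range with replicates 2 and 4 highest (replicates 1 and 4 after quantile normalization), and 0.77, 0.60, 0.79 and 0.64 with the other.

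Hnrnpm, an abundant hnRNP protein that acts on the splicing of innate immune transcripts, read 1.22, 0.03, 1.11 and -0.12 with the probe printed 10 times, a 2.53-fold range, and its second probe read 0.29, -0.88, 0.21 and -0.67. On replicate 4 up to 4 of the 24 spots that surround 1 of its spots were raised (at least 4-fold over the median array), and none of its own was. Hnrnpr, an RNA-binding protein also found in the cytoplasm, read -0.20, -1.15, -0.30 and -1.57 with its brighter probe and -3.58, -5.04, -4.03 and -5.27 with the other. The ranges were 2.58-fold and 3.22-fold. Hnrnpul2, a relative of the scaffold attachment factor Hnrnpu, read -2.16, -3.53, -2.20 and -3.53 with its brighter probe and -2.58, -4.11, -2.54 and -4.02 with the other. The 2 probes of each of these 3 genes moved alike.

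Hnrnpa2b1 read 1.33, 0.39, 1.28 and 0.31, a 2.02-fold range. Hnrnpu, which binds chromatin and nascent RNA, had the same higher pair at 0.90, 0.40, 0.96 and 0.31, a 1.57-fold range. Other hnRNP genes went the other way. Hnrnpc, which binds uridine tracts, read 0.59, 1.29, 0.49 and 1.33 with its brighter probe, a 1.79-fold range, and 0.54, 0.91, 0.56 and 1.01 with the other. Hnrnpl, which binds CA repeats, read 2.36, 2.91, 2.28 and 2.86 with its brighter probe, a 1.55-fold range. On these probes replicates 2 and 4 were the higher pair, also under the other scalings and normexp.

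Another 4 hnRNP genes had ranges under 1.5-fold. Hnrnpd, the AU-rich element binding protein AUF1, read -2.81, -2.68, -2.80 and -2.64, a 1.13-fold range. Hnrnpab read between 4.46 and 4.65 with one probe and between 2.93 and 3.30 with the other. Hnrnpul1 had a level of 0.95 ± 0.12. Hnrnpdl had a level of -2.86 ± 0.19. With the percentile of all probes the range was 1.45-fold for Hnrnpd, 1.49-fold and 1.69-fold for Hnrnpab, 1.57-fold for Hnrnpul1 and 1.27-fold for Hnrnpdl.

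Of the 12 detected SF3A and SF3B probes, 0 had a range over 2-fold, against 18.3% of all probes, and the widest range was 1.67-fold. Their median range, 1.43-fold, was close to the 1.44-fold of all probes, and with the percentile of all probes it was 1.81-fold. With that percentile 4 of the 12 had a range over 2-fold and with quantile normalization 2 did, all of them highest on replicates 2 and 4. Replicates 2 and 4 were the higher pair for 7 probes (58.3%, against 41.5% of all probes) and replicates 1 and 3 for 4 (33.3%, against 40.1%). Sf3b5, a small SF3B subunit, read 1.24, 1.94, 1.20 and 1.92, a 1.67-fold range. Sf3b3, a scaffold subunit, read -0.24, 0.31, -0.24 and 0.39, and Sf3b2 read 1.20, 1.54, 1.30 and 1.79. All of these were higher on replicates 2 and 4. So was Sf3b4, which binds upstream of the branch point and read -2.64, -2.28, -2.67 and -2.35.

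Sf3b1, the SF3B subunit that is often mutated in myeloid disease, read 1.54, 1.20, 1.55 and 1.22 with a probe printed 10 times, a 1.27-fold range. Replicates 1 and 3 were higher there, but with the percentile of all probes replicates 2 and 4 were. Its second probe was detected on replicates 1 and 3 alone, at -5.68 and -5.69, against -6.66 and -7.16 on replicates 2 and 4. Sf3b6, which lies near the branch point adenosine, read 0.23, -0.10, 0.29 and 0.34. In the SF3A complex, Sf3a1 read -5.00, -4.51, -5.23 and -4.71, and the brighter Sf3a2 probe read 0.58, 1.01, 0.43 and 1.0. Both were higher on replicates 2 and 4. Sf3a3 read -3.22, -3.37, -3.29 and -3.38 with probe A_43_P18203 and -0.01, -0.15, -0.10 and -0.26 with the other. Their highest pair changed with the scaling.

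For probes that were printed 10 times per array the spot error can be set beside the spread between cultures. There were 11 such members, and the SD between spots of one array had a median of 0.0458 and ran from 0.0371 to 0.0963. The SD between spots covers noise within an array only, not RNA preparation or labelling. It is the SD of single spots, whereas an array's level is the mean of its spots and carries less spot error. For 9 of the 11 the SD between arrays was larger than the SD between spots, and for 9 to 11 of them under the other scalings. It was 14.5 times as large for Hnrnph1 (0.720 against 0.0498), 7.32 times for Hnrnpm and 9.28 and 9.34 times for the repeated probes of Hnrnpa3, whose ratios were 4.53 and 4.42 with the percentile of all probes. For the repeated probes of Srsf2 and Hnrnpa1 the SD between arrays, 0.0274 and 0.0330, was below that between single spots, 0.0371 and 0.0454. Under the other scalings it was above it, from 0.103 to 0.225 for Srsf2 and from 0.0974 to 0.187 for Hnrnpa1. The spot error of a mean was not computed, so the lower values do not place these probes below spot error. The other members were printed 1 time (53 probes) or 2 times (5 probes) per array.

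Probes of one gene disagreed between replicates in 4 genes. The log2 difference between 2 probes of one gene was followed over the 4 arrays, and a pair was said to disagree where that difference varied by more than 1. Scaling an array by a constant cannot change it. Of 42 pairs in 17 genes with both probes detected on all arrays, 13 (31.0%) disagreed, against 10.6% of 2375 such pairs over all named genes. Pairs of one gene share probes, and by gene the shares were 4 of 17 (23.5%) and 190 of 1504 (12.6%). The member genes had more pairs per gene, which gives each more chances to hold a disagreeing pair. The 4 genes were Srsf2, Hnrnpa1, Hnrnpa3 and Hnrnpk. With normexp, whose offset draws dim signals together, 7 pairs disagreed. Quantile normalization does not scale by a constant, and with it 10 pairs disagreed.

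The widest disagreement was in Srsf2, which encodes SC35, an SR protein that controls its own transcript by splicing of its 3′ region. Probe A_44_P1089951, designed against the curated transcript record and printed 10 times per array, read 2.17, 2.17, 2.20 and 2.23 on replicates 1 to 4 and had a 1.04-fold range, or 1.33-fold with the percentile of all probes. Probe A_44_P381360, designed against a predicted record, read -1.96, -3.91, -2.02 and -4.20, a 4.72-fold range. The difference between the 2 probes varied 4.92-fold. Of the 4 cultures, replicates 1 and 3 were high on the second probe while the first stayed near its mean.

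In Hnrnpa1, the best known hnRNP protein and an exon silencer, 1 of 5 probes stood apart although all were designed against the same record. Probe A_44_P944757 read -0.78, -1.84, -0.63 and -2.11, a 2.78-fold range. Probe A_64_P067163, printed 10 times, read 1.11, 1.09, 1.15 and 1.07, and A_44_P1359702 read 0.43, 0.34, 0.23 and 0.17. Probe A_44_P1082490 read -0.17, -0.41, -0.32 and -0.33, and A_44_P1361574 read -2.11, -2.31, -2.0 and -2.20. These 4 had ranges of 1.06-fold to 1.24-fold, or 1.2-fold to 1.41-fold with the percentile of all probes. The difference between the divergent probe and each of the others varied 2.42-fold to 2.75-fold. The RefSeq table lists 50 pseudogenes named after Hnrnpa1, and whether a probe also reads them was not tested.

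In Hnrnpa3, a close relative of Hnrnpa1 that also binds telomeric repeats, all 5 detected probes were higher on replicates 1 and 3 and differed in how far. The repeated probes A_44_P1157429 (1.33, 0.68, 1.34 and 0.60) and A_44_P1156942 (0.59, -0.09, 0.60 and -0.15) had ranges of 1.67-fold and 1.68-fold. Probe A_44_P1363573, designed against the same record, read -1.73, -2.45, -1.44 and -2.66, a 2.33-fold range. Probes A_44_P1082334 (-2.11, -3.92, -2.11 and -4.02) and A_44_P794598 (-2.47, -4.55, -2.43 and -4.66), each against another record, had ranges of 3.75-fold and 4.68-fold. A sixth probe was detected on no array, and it makes up all 5 member pairs with 1 probe detected on all arrays and the other on none (9.62% of 52 pairs, against 10.9% over all named genes).

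In Hnrnpk, which binds cytidine-rich RNA and DNA, the probes moved in opposite directions. Probe A_44_P1087303 read 1.87, 1.29, 1.88 and 1.14, highest on replicates 1 and 3. Probe A_64_P132468 read -0.38, 0.04, -0.41 and 0.15, and probe A_44_P1361929 read 0.68, 0.96, 0.53 and 0.93, both highest on replicates 2 and 4. The fourth, A_44_P1145050, read 1.16, 1.38, 1.08 and 1.30. Of the 42 member pairs, A_44_P1087303 with A_64_P132468 was the 1 pair in which the highest array of one was the lowest of the other, with both ranges over 0.5 on the log2 scale, which held for 1.35% of pairs over all named genes. All 4 were designed against the same record. The higher pair of A_44_P1087303 and that of A_64_P132468 were each the same under the other scalings and normexp. With the percentile of all probes A_44_P1087303 had a 1.30-fold range, which is under 0.5 on the log2 scale. The highest pair of A_44_P1145050 became replicates 1 and 2 with quantile normalization and with normexp.

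Other genes of the splicing pathway showed both kinds of behaviour when each was taken by its brightest detected probe. Of 39 such genes detected on all arrays, 11 (28.2%) had a range over 2-fold, against 13.6% of all named genes by the same rule and 10 of 36 member genes (27.8%). These counts, and the ranges and directions below, are given only for the scaling on probes detected on every array. The other scalings, which changed the counts and directions of the members, were not tested on these genes. Among early spliceosome and snRNP genes 1 of 13 did, Prpf19, and it was highest on replicates 2 and 4. Among SR relatives and SR kinases 4 of 12 did: the SR-like gene Tra2a, the kinase genes Clk1 and Clk4, whose products phosphorylate SR proteins, and the speckle scaffold gene Son, with ranges of 2.24-fold, 2.44-fold, 2.58-fold and 2.25-fold. Among other RNA-binding regulators 6 of 14 did: Ptbp3, Tardbp, Taf15, Syncrip, Matr3 and Qki. Apart from Prpf19, all of these were highest on replicates 1 and 3. For Prpf19 and Clk4, replicate 2 alone stood apart from the others (-3.58 against -5.46 to -4.83, and -2.79 against -1.63 to -1.43).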

How the data were processed

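Per the labels' protocols, 100 ng of RNA with an integrity number over 7.5 was labelled. The deposited files hold the intensity of each spot, extracted by the authors using Agilent Feature Extraction (version 11.0.1.1 in the submitters' processing notes). The file headers name build rn4 for the array design and 1 slide for the 4 arrays. The deposited processed intensity had its background subtracted and a detrending step but was not normalized across arrays, per the file headers.

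Outlier spots (623 to 1016 per array) were dropped, and none was saturated. Repeated spots were averaged as log2, and such a probe was detected where more than 50% of its spots were. Because 34.2% of probes were detected on every array, each array was scaled on the 75th percentile of those, which hides any change in total messenger RNA. Accessions, without version, were matched to the RefSeq table of GRCr8: 21109 of 45598 probes had 1 symbol, 0 several and 24489 none. No coordinates are given for probes, since the builds differ.

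With 1 group no test between groups was run, and all values are descriptions. Values on every array are given for members with a range over 2-fold, the 5 smallest SDs, disagreeing pairs, members detected on some arrays and the brightest probe of a fixed set of genes; other members given were chosen after their values were seen. Members and lists were chosen with earlier results of these data known. Alternatives were 3 other scalings, normexp (offset 50, limma 3.58.1, R 4.3.3, on the deposited median spot and background intensity, which the plan named as the substitute for the mean), leaving out each replicate, other detection and outlier rules, a 1.5-fold threshold and detection on at least 3 arrays. Raised spots were sought after the data were seen, with signals under 50 set to 50. Besides Hnrnpm, 3 raised spots surrounded the Sf3b2 probe and 1 spot of Srsf2 probe A_44_P1089951 on replicate 4, and the Srsf4 probe on replicate 1. The only raised member spots were those of Hnrnpa3 probe A_44_P794598 on replicates 1 and 3. The counting steps were run on simulated data with known changes and less spread between arrays than the real data. That run checks the code only, not how the counts behave in these data. Python 3.11.15 and numpy 2.4.6 were used.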

Additional observations from a re-analysis of the deposited data

Results flagged for a closer look

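Of 62 members detected on all arrays, 1 had a culture far from the other 3 by Dixon's ratio, and chance alone flags about 1 in 20. For Hnrnpab probe A_64_P146984 replicate 2 stood apart at 4.65, where the other 3 cultures read 4.46 to 4.49 (ratio 0.853). The second Hnrnpab probe had no such array, and the difference amounts to a 1.14-fold range. Dixon's ratio is given for the main scaling only. The highest pair of the flagged probe was replicates 2 and 4 with the percentile of all probes and with the array median. With quantile normalization it was replicates 1 and 3.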

How the results depend on the processing

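The count of members detected on all arrays ran from 62 to 63 under 7 alternatives, and the median SD of members, 0.319, from 0.291 to 0.392 under 12. The count of members with a range over 2-fold, 20, ran from 15 to 34 under 13 alternatives. It was 34 with a 1.5-fold threshold, which 43.2% of all probes pass, and from 15 to 19 with 1 replicate left out. The count of disagreeing pairs, 13, ran from 7 to 15 under 13 alternatives. It was 7 with normexp, 10 with quantile normalization and 12 with any 1 replicate left out. The count highest on replicates 1 and 3, added after the data were seen, ran from 26 to 35 under 8 alternatives. With the percentile of all probes the SD of 15 of the 69 probes moved by more than its own size. Mean levels there differ by 1 constant for all probes, since the zero point changes. No paired analysis was possible because there is 1 group. Signal over background limits 7 members, which were not well above background on at least 1 array.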
